A study of Mus musculus with 12 samples.

Results

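The circadian clock genes examined here are 10 core and output genes of the mammalian clock, Arntl, Clock, Npas2, Per2, Per3, Cry1, Cry2, Nr1d1, Nr1d2 and Dbp, taken by their symbols from the 28244 genes listed. All 10 passed the filter on low values that left 17674 genes for testing. RNA was sequenced from pellets of cartilage progenitors of C57/BL6 pups aged 5 or 6 days. These had been isolated from the heads and condyles of femurs and the heads of tibiae. The pellets spent 7 days in a commercial chondrogenic medium and then up to 21 days in a commercial osteogenic one, with fresh medium at intervals of 4 days. D7 pellets had seen no osteogenic medium, and D8, D10 and D28 pellets had been in it for 1, 3 and 21 days, with 3 replicates at each of the 4 time points. All groups share the strain and the chondrogenic priming, and replicates are not stated to come from separate animals or cultures, so that p-values measure only the spread between these libraries, which may be technical. With this schedule the D8 and D10 pellets were 1 and 3 days from the switch of medium, whereas for D7 and D28 the time since the last change is not stated. The hour of harvest is not given in the sources used here. Day of culture, time since fresh medium and any difference in hour cannot be told apart in the comparisons below.

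The clock is a transcriptional feedback loop that runs in most cells, cultured chondrocytes and osteoblasts included. ARNTL (also called BMAL1) pairs with CLOCK or its relative NPAS2 and activates genes through E-boxes, among them the Per and Cry genes, whose proteins block that activation. The same pair drives Nr1d1 and Nr1d2, which encode the REV-ERB nuclear receptors that repress Arntl, Clock, Npas2 and Cry1 through ROR elements, and Dbp, an output factor that acts on D-boxes. In cultured cells serum, glucocorticoids or fresh medium can set the phase of the loop, and without such a signal single cells drift apart, so that the mean of a pellet depends on how well its cells are aligned.

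Letters that match such elements occur in the promoters of 3 of the clock genes. They are shown because the levels of these genes are set against each other below, and whether they act in these pellets was not tested. Promoters of 300 bases (250 before and 50 after a start site, RefSeq, build GRCm38.p6) were found for 9 of the 10 genes, with Per2 not matched. Both strands were searched for the E-box CACGTG, the D-box TTATGTAA, the core of a ROR element TAGGTCA and the cAMP response element TGACGTCA. The windows below are read along each gene's own strand, with the motif in capitals. The Per3 window, chr4:151044791-151044890 on the minus strand and upstream of the annotated gene, holds D-boxes that begin 205 and 158 bases before the start site. The Cry1 window, chr10:85185065-85185164 on the minus strand and likewise just upstream, holds an E-box that begins 60 bases before the start site. The Arntl window, chr7:113207530-113207559 on the plus strand and inside the annotated gene, holds a ROR core that begins 30 bases after the second of 2 listed start sites.
Per3: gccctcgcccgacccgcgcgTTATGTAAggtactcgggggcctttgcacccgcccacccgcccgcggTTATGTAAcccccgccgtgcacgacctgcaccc
Cry1: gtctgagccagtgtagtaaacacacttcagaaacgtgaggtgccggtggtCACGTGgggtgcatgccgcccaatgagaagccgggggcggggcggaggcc
Arntl: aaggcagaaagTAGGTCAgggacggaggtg

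Of all 32851 promoters of this length in the table, 7.15% held the E-box, 0.938% the D-box, 2.61% the ROR core and 1.79% the cAMP response element. The 9 matched clock genes had 12 promoters. The E-box, the D-box and the ROR core were each found in 1 of these 9 genes, and the cAMP response element in 0. The other matched clock genes held none of the 4 motifs in their windows, which says only that these letters are not there. Among the accessory clock genes described below, 17 of 24 were matched, and Ciart held 3 E-boxes, with 1 in each of Bhlhe41 and Per1 and 1 in both listed promoters of Tef. Timeless held a D-box, Nfil3 a ROR core and Hlf a cAMP response element.

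The deposited value is the log2 of an equalized read count plus 1, and the levels and differences below are on this scale unless stated. The equalization gave every library nearly the same set of values and unlogged totals of 25529105 to 25530208, so the sequencing depth of a library is not kept. Between 11055 and 12383 genes per library stood at 0, with the highest number in replicate 1 of D10, where the lowest level above 0, taken as 1 read, was also the highest, at 1.81 against 0.50 to 1.37 in the other libraries. The lowest value of any clock gene in any library was 7.12, far above these levels. Markers of cartilage were high throughout. The summed level of 8 chondrocyte markers lay between 21.2 and 21.4 in the D7, D8 and D28 libraries and between 20.3 and 20.5 at D10, but Col2a1 dominates this sum and held the largest value of the table, which the equalization fixes, in all D7, D8 and D28 libraries. Of the 8 markers, 5 were called lower at D10 than at D7, and from D7 to D28 Col10a1 and Col9a1 fell by 2.99 and 1.71 while Matn1 rose by 1.04. Other cells were traceable as well. The 6 skeletal muscle markers summed to between 11.5 and 11.9 at D7 and to between 6.09 and 7.20 at D28, and the 5 adipocyte markers to between 9.89 and 10.5 at D10 and between 15.3 and 15.8 at D28. The summed level of 7 osteoblast markers lay between 18.5 and 19.1 at D7 and between 16.7 and 17.6 at D10, with 4 of the 7 called lower and 2 higher at D10. Of other cells, 5 macrophage markers summed to between 9.65 and 12.1, 4 endothelial ones to between 3.26 and 7.48 and 3 neuronal ones to at most 3.91, and the erythroid gene Hbb-bt was at 0 in all libraries. In bulk RNA of this kind, fewer cells of a type and less RNA per cell cannot be told apart, and the part of changing cell makeup in the clock values was not tested.

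Time points were compared by limma, with Benjamini-Hochberg adjusted p over all genes tested. A gene was called, and is said to have risen or fallen, at an adjusted p under 0.05 and at least a 2-fold change (1 on the log2 scale), and smaller differences with an adjusted p under 0.05 are given with that p. By the F test over the 4 time points, 9 of the 10 clock genes differed between time points at an adjusted p under 0.05, as did 64.6% of all genes tested. Cry1 was the exception (adjusted p = 0.069). Without replicate 2 of D10 or without replicate 3 of D28, all 10 differed by this test. The differences were mostly moderate. The range between the highest and the lowest mean was widest for Npas2, at 1.98, followed by Nr1d2 at 1.65, Nr1d1 at 1.56 and Dbp at 1.54, and narrowest for Arntl, at 0.48. The median of this range was 0.77 over the 12181 genes tested with a mean level of at least 5.

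**Figure D1:**
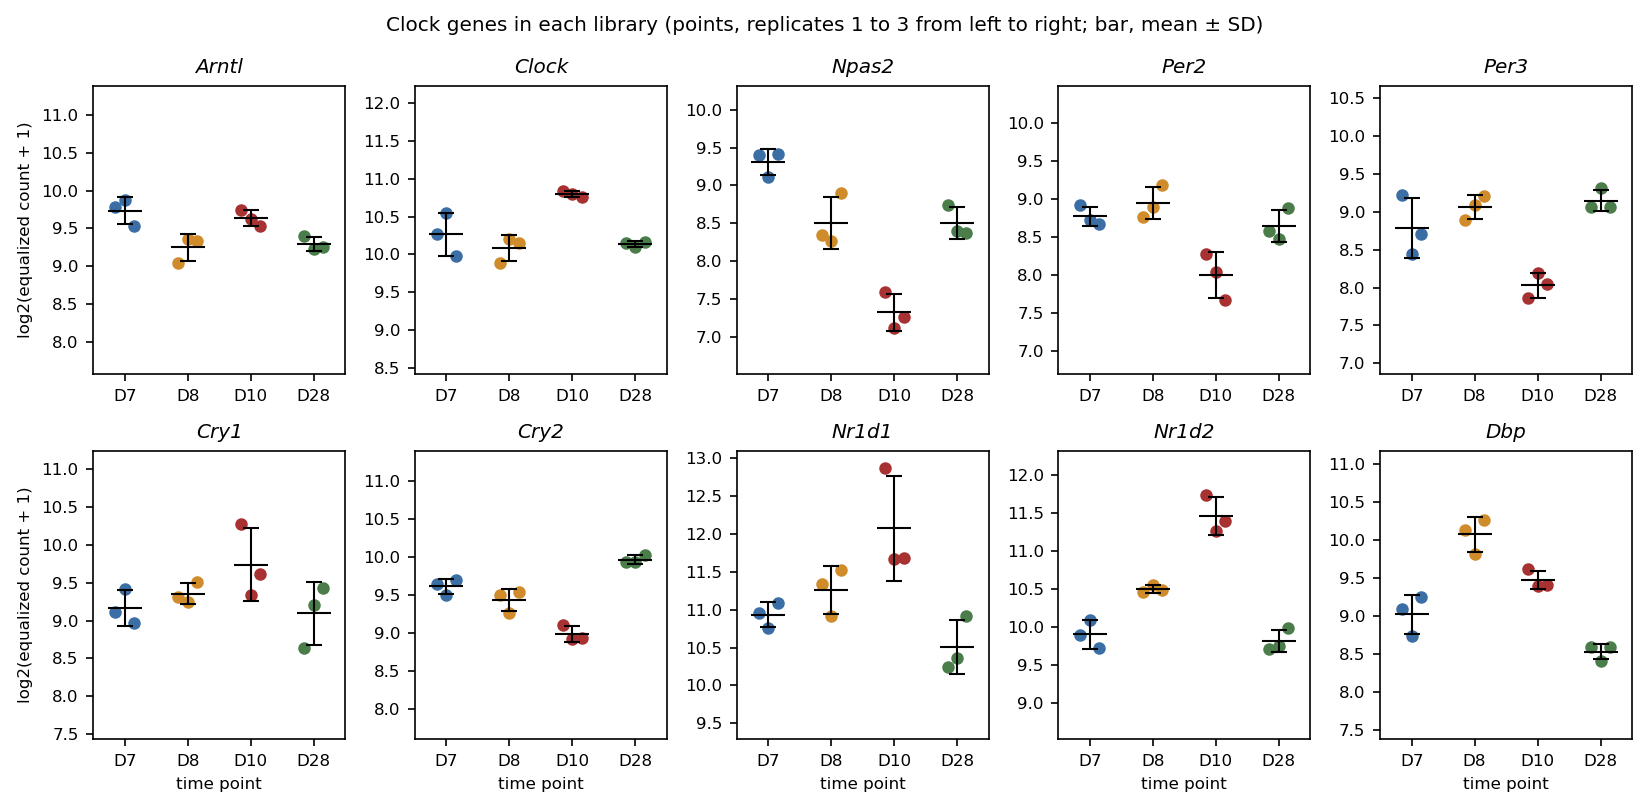
Level of each clock gene in every library, as log2(equalized count + 1) on the y axis, by time point on the x axis; points are libraries, with replicates 1 to 3 from left to right, and the bars give the mean ± SD of 3 libraries. At D10 the points of Clock, Nr1d1 and Nr1d2 lie above, and those of Npas2, Per2, Per3 and Cry2 below, the points of the other time points.

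At D10, after 3 days in osteogenic medium, Clock, Cry1, Nr1d1 and Nr1d2 had their highest mean, and Npas2, Per2, Per3 and Cry2 their lowest. Over the genes tested with a mean of at least 5, 35.6% had their highest mean at D10 and 27.1% their lowest, so that 4 and 4 of the 10 clock genes are near the shares of all genes. Arntl and Npas2 were highest at D7, Per2 and Dbp at D8, and Per3 and Cry2 at D28. The lowest means of Cry1, Nr1d1, Nr1d2 and Dbp were at D28, where 37.2% of all these genes had theirs, and those of Arntl and Clock at D8. No clock gene was called between D28 and D7, whereas 17.3% of all genes tested were. Between these time points the study's own rule also called 0 of the 10 genes, and 4 had an unadjusted p under 0.05 by limma. The same 4, Arntl, Npas2, Cry2 and Dbp, had an adjusted p under 0.05, against 37.3% of all genes.

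**Figure D2:**
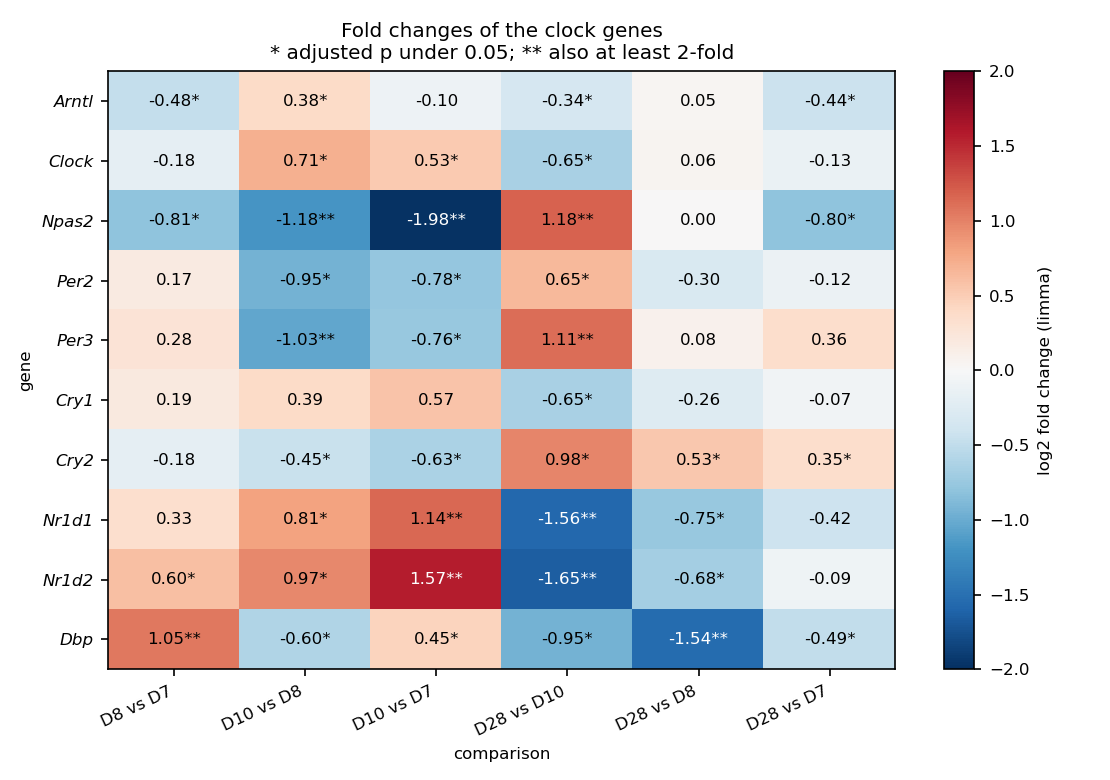
Log2 fold changes of the clock genes (rows) in the 6 comparisons (columns), from limma with 3 libraries per time point; colour runs from -2 to 2 on the log2 scale, * marks an adjusted p under 0.05 and ** marks that together with at least a 2-fold change. Called values are found in the comparisons with D10 and, for Dbp, with D8, and the column for D28 vs D7 holds none.

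The positive arm of the loop was examined first. Npas2 (chromosome 1, 39193731 to 39363236, GENCODE M21 on GRCm38, as for all positions of genes below) encodes a partner of ARNTL that can stand in for CLOCK. Its level was 9.41, 9.11 and 9.41 in the D7 libraries, 8.34, 8.27 and 8.90 in the D8 libraries, 7.59, 7.12 and 7.26 in those of D10, and 8.75, 8.40 and 8.37 in those of D28. The D10 libraries were the lowest of all and the D7 libraries the highest, without overlap, whereas the D8 and D28 libraries overlapped. Npas2 fell by 1.98 from D7 to D10, to 0.253 of its D7 level (standard error 0.19, adjusted p = 6.8e-07, limma). Part of that difference lay between D7 and D8 (-0.81, adjusted p = 0.0059, limma) and part between D8 and D10 (-1.18, adjusted p = 0.00030, limma). From D10 to D28 Npas2 rose by 1.18 (adjusted p = 6.7e-05, limma) and remained 0.80 below its D7 mean (adjusted p = 0.0031, limma). The call between D8 and D10 was lost without replicate 3 of D8 (-0.98), the highest of the D8 libraries. Without that library the difference between D7 and D8 passed 2-fold and was called.

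Clock (chromosome 5, 76209868 to 76304792) itself stood in the other direction at D10. Its libraries stood at 10.27, 10.55 and 9.98 on D7, 9.88, 10.21 and 10.16 on D8, 10.83, 10.80 and 10.75 on D10 and 10.15, 10.10 and 10.17 on D28. All D10 libraries were above every other library. The difference from D8 to D10 was 0.71 (95% interval 0.44 to 0.99, adjusted p = 0.00089, limma) and that from D10 to D28 was -0.65 (adjusted p = 0.00053, limma), both short of 2-fold. Arntl (chromosome 7, 113207465 to 113314126), which encodes the partner that both proteins need, had the narrowest range of means. The D7 libraries were at 9.78, 9.88 and 9.54, the D8 libraries at 9.05, 9.37 and 9.34, the D10 libraries at 9.74, 9.63 and 9.53 and the D28 libraries at 9.40, 9.23 and 9.25. The D7 and D10 libraries overlapped and lay above those of D8 and D28. Arntl differed by -0.48 between D7 and D8 (adjusted p = 0.012, limma), by 0.38 between D8 and D10 (adjusted p = 0.031, limma) and by -0.34 between D10 and D28 (adjusted p = 0.033, limma).

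The repressors encoded by the Per genes were lowest at D10. Per3 (chromosome 4, 151003652 to 151044665) had values of 9.22, 8.44 and 8.70 on D7, of 8.89, 9.09 and 9.21 on D8, of 7.86, 8.19 and 8.04 on D10 and of 9.07, 9.31 and 9.06 on D28. The D10 libraries lay below all others, and the libraries of the remaining time points overlapped. From D8 to D10 Per3 fell by 1.03 (adjusted p = 0.00053, limma), with a standard error of 0.18, and it rose by 1.11 from D10 to D28 (adjusted p = 6.7e-05, limma). The fall was just past 2-fold, and it was 0.96 without replicate 3 of D8 and 0.95 without replicate 1 of D10, and so not called in either case. For Per2 (chromosome 1, 91415982 to 91459324), a central repressor of the loop, the values were 8.92, 8.72 and 8.68 on D7, 8.76, 8.89 and 9.18 on D8, 8.27, 8.04 and 7.67 on D10 and 8.57, 8.48 and 8.89 on D28. Again the D10 libraries were the lowest, with overlap among the rest. The difference from D8 to D10 was -0.95 (95% interval -1.31 to -0.59, adjusted p = 0.00081, limma) and that from D10 to D28 was 0.65 (adjusted p = 0.0045, limma). Per2 was called between D8 and D10 without replicate 1 of D8 (-1.04) or replicate 1 of D10 (-1.09).

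The cryptochromes, which repress the ARNTL complex together with the PER proteins, are taken next. Cry2 (chromosome 2, 92403646 to 92434043) was at 9.64, 9.50 and 9.70 in the D7 libraries, at 9.50, 9.26 and 9.54 in those of D8, at 9.10, 8.92 and 8.93 in those of D10 and at 9.94, 9.93 and 10.03 in those of D28. The D10 libraries were the lowest and the D28 libraries the highest, each without overlap. The difference from D10 to D28 was 0.98 (95% interval 0.75 to 1.22, adjusted p = 2.4e-06, limma), just under 2-fold, and it passed 2-fold without replicate 1 of D10 (1.04), without replicate 2 of D28 (1.00) and with median-of-ratios scaling (1.11). An overlapping transcript on the other strand, D930015M05Rik, shares 295 bases with Cry2, 4.67% of its exonic length, and had means of at most 3.30. Cry1 (chromosome 10, 85131700 to 85185064) had D7 values of 9.11, 9.42 and 8.96, D8 values of 9.31, 9.24 and 9.51, D10 values of 10.27, 9.34 and 9.61 and D28 values of 8.64, 9.21 and 9.43. All pairs of time points overlapped, and the replicates of D10 and of D28 were far apart. The difference from D7 to D10 was 0.57 (95% interval 0.10 to 1.05, adjusted p = 0.051, limma), and only that from D10 to D28 had an adjusted p under 0.05 (-0.65, adjusted p = 0.024, limma).

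Nr1d1 and Nr1d2, the REV-ERB genes, both rose from D7 to D10 and fell by D28. Nr1d2 (chromosome 14, 18204054 to 18239127) was at 9.89, 10.10 and 9.72 on D7, at 10.46, 10.55 and 10.49 on D8, at 11.74, 11.26 and 11.40 on D10 and 9.71, 9.75 and 9.98 on D28. The 3 groups D7, D8 and D10 followed each other without overlap, and the D28 libraries overlapped those of D7. Nr1d2 rose 2.96-fold from D7 to D10 (log2 fold change 1.57, standard error 0.13, adjusted p = 2.4e-07, limma) and fell by 1.65 from D10 to D28 (adjusted p = 6.2e-08, limma). The steps from D7 to D8 and from D8 to D10 were 0.60 (adjusted p = 0.0045, limma) and 0.97 (adjusted p = 9.6e-05, limma). Between D28 and D7 the difference was -0.09 (95% interval -0.37 to 0.20).

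The values of Nr1d1 were 10.95, 10.76 and 11.08 for D7, 11.34, 10.92 and 11.53 for D8, 12.87, 11.67 and 11.68 for D10 and 10.24, 10.37 and 10.92 for D28. All D10 libraries were above all others, but replicate 1 of D10 was far above replicates 2 and 3. From D7 to D10 Nr1d1 rose 2.21-fold (log2 fold change 1.14, standard error 0.27, adjusted p = 0.0028, limma) and from D10 to D28 it fell by 1.56 (adjusted p = 0.00014, limma). Without replicate 1 of D10, the library with most genes at 0, the first of these was 0.74 (adjusted p = 0.0076, limma) and not called, and the second was -1.16 and still called. The gene lies on the minus strand of chromosome 11 (98767932 to 98775333) and shares 263 exonic bases, 8.55% of its exonic length, with Thra on the other strand. The library kit keeps the strand, but whether the counting used it is not given in the sources used here. Thra stood at 11.11 ± 0.18 at D7, 10.41 ± 0.12 at D8, 10.02 ± 0.12 on D10 and 11.76 ± 0.16 at D28 (SD, n = 3), lowest where Nr1d1 was highest.

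Dbp, the PAR bZIP output factor that is under direct control of the ARNTL complex, was the clock gene that stood out on the first day of osteogenic medium. Its D7 libraries were at 9.09, 8.74 and 9.24, its D8 libraries at 10.14, 9.81 and 10.27, its D10 libraries at 9.61, 9.40 and 9.41 and its D28 libraries at 8.59, 8.41 and 8.59. The 4 time points did not overlap, in the order D8, D10, D7 and D28 from high to low. From D7 to D8 Dbp rose 2.07-fold (log2 fold change 1.05, standard error 0.15, adjusted p = 0.00014, limma), the 1 call among the 10 clock genes in a comparison that called 7.04% of all genes. That rise was close to 2-fold, and it was 0.91 without replicate 2 of D7, 0.95 without replicate 3 of D8 and 0.999 with median-of-ratios scaling, none of which is a call. From D8 to D28, both in osteogenic medium, Dbp fell by 1.54 (adjusted p = 6.7e-07, limma), also the 1 clock gene called there, against 19.7% of all genes. Dbp (chromosome 7, 45705088 to 45710203) shares 539 exonic bases, 18.0% of its exonic length, with Sphk2 on the other strand. Sphk2 stood at 9.18 ± 0.27 at D7, 9.66 ± 0.10 at D8, 9.55 ± 0.25 on D10 and 9.61 ± 0.08 at D28 (SD, n = 3).

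Counted over the 10 genes, 2 were called from D8 to D10, Npas2 and Per3, both lower, beside 9.66% of all genes. That count was 0 without replicate 3 of D8, and 4 without replicate 2 or without replicate 3 of D10, when Nr1d1 and Nr1d2 were added. From D7 to D10, 3 were called, Nr1d1 and Nr1d2 higher and Npas2 lower, beside 18.9%. From D10 to D28, 4 were called, Npas2 and Per3 higher and Nr1d1 and Nr1d2 lower, beside 27.5%. At an adjusted p under 0.05 and any fold change, the counts were 4 of 10 from D7 to D8 (21.0% of all genes), 9 from D8 to D10 (28.8%), 8 from D7 to D10 (41.2%), 10 from D10 to D28 (52.4%) and 4 from D8 to D28 (41.3%). The median absolute log2 difference of the clock genes from D8 to D10 was 0.76, against 0.39 for all genes tested, and from D8 to D28 it was 0.28, against 0.49. These comparisons share libraries, so that one set of D10 libraries enters 3 of them.

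Related genes of the loop were set against each other within each library, which removes any shift common to a library. The log2 difference between Npas2 and Clock was -0.96 ± 0.45 at D7, -1.58 ± 0.34 at D8, -3.47 ± 0.22 on D10 and -1.63 ± 0.20 at D28 (SD, n = 3). Every D10 library, at -3.67 to -3.24, was below every other, of which the lowest was at -1.94. That between Cry1 and Cry2 was -0.45 ± 0.33 at D7, -0.08 ± 0.10 at D8, 0.76 ± 0.38 on D10 and -0.87 ± 0.37 at D28, highest in the 3 D10 libraries. These differences are of counts not scaled by transcript length, so that their change between time points is read here and not their sign. For Per2 against Per3 the means lay between -0.50 and -0.02 and the time points overlapped, as they did for Nr1d1 against Nr1d2, between 0.61 and 1.03. Dbp against Arntl was at -0.71 ± 0.42 for D7, 0.82 ± 0.33 for D8, -0.16 ± 0.06 for D10 and -0.77 ± 0.09 for D28, with the D8 libraries above all others and those of D10 next, without overlap. Nr1d1 against Arntl had means of 1.20, 2.01, 2.44 and 1.21 in the same order, with the D8 and D10 libraries overlapping. These pairs were compared after their values had been seen and carry no test. Levels of different genes were compared per kilobase of exonic sequence. On that scale the mean log2 level of Cry1 was above that of Cry2 at each time point, at 7.43 against 6.96 for D7, 7.62 against 6.78 for D8, 8.00 against 6.34 for D10 and 7.36 against 7.31 for D28. Nr1d1 was the highest of the 10 at each time point, with a mean log2 level between 8.89 at D28 and 10.45 at D10. Per3 had the lowest such level of the 10 at each time point, between 4.81 on D10 and 5.90 at D28.

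**Figure D3:**
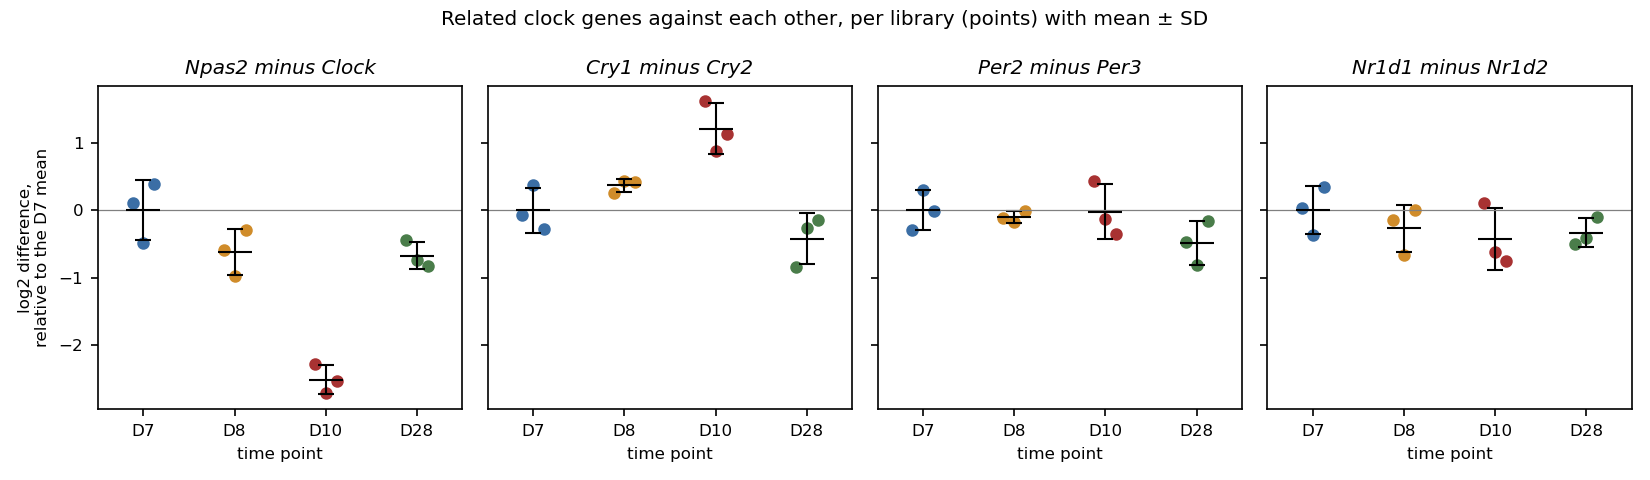
Log2 difference between related clock genes within each library on the y axis, shifted so that the D7 mean is 0, by time point on the x axis; points are libraries and bars the mean ± SD of 3 libraries. Npas2 against Clock is lowest and Cry1 against Cry2 highest in the D10 libraries, whereas the points of Per2 against Per3 and of Nr1d1 against Nr1d2 overlap between time points.

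Within a time point, the replicates differed by less for most clock genes than the fold changes above. The residual SD around the time point means was between 0.11 for Cry2 and 0.43 for Nr1d1, with a median of 0.19 over the tested genes of at least level 5. Nr1d1 and Cry1 had the widest spread, at the 93.6th and 86.8th percentiles of these genes. Both were high in replicate 1 of D10, by 0.80 and 0.53 above the group mean, and in replicate 3 of D28, by 0.41 and 0.34. In replicate 1 of D28 both were low, by 0.27 and 0.45. The median absolute deviation of the 10 genes in replicate 1 of D10 was 0.22, against 0.17 for all genes tested.

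Genes with the most similar course were sought among 12171 tested genes with a mean of at least 5, by Pearson's r over the 12 libraries. These share their time points, so r is a description. For Arntl these were Ufl1 (r = 0.94), Fem1c (0.94), Napb (0.93), Kdm5a (0.91) and Rora (0.91), the last encoding a nuclear receptor that activates Arntl through ROR elements. For Dbp they were Abr (0.98), Nomo1 (0.97), Tnfaip1 (0.97), Lrrc32 (0.97) and Tbl3 (0.96). Among pairs of clock genes, r was highest between Nr1d1 and Nr1d2 (0.88), Nr1d1 and Cry1 (0.85), Nr1d2 and Cry1 (0.79) and Nr1d2 and Clock (0.78), and lowest between Nr1d2 and Cry2 (-0.90), Clock and Per3 (-0.84) and Nr1d2 and Npas2 (-0.83). Many other genes were closer to each of them. Among 12180 genes, Nr1d2 ranked 369th by r with Nr1d1, Nr1d1 ranked 52nd by r with Cry1, and Npas2 and Per3 ranked 208th and 232nd by r with Per2. In the other direction the ranks were lower. Nr1d1 ranked 758th by r with Nr1d2, Cry1 594th by r with Nr1d1, and Per2 738th by r with Npas2 and 731st with Per3. Between Arntl and Dbp r was -0.18 and between Arntl and Nr1d1 0.28.

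Of a list of 24 accessory genes of the clock, written from knowledge of the pathway, all were tested and 13 were called in at least 1 of the 6 comparisons, as were 39.6% of all genes tested. From D7 to D8, where 7.04% of all genes were called, 3 rose and none fell. Hlf, a PAR bZIP factor related to Dbp, rose by 1.79 (adjusted p = 0.0022, limma) from a low level of 4.72 ± 0.22 (SD, n = 3). Ciart, an E-box driven repressor of the ARNTL complex, rose by 1.05 (adjusted p = 0.00066, limma). Rorb, a nuclear receptor gene, was at or under 3 reads in each D7 library and was at least 1.92-fold higher at D8, with values under 2.87 raised to that level. Tef, the third of the PAR bZIP genes and described here after its values were seen, stood at 10.37 ± 0.14 at D7, 10.99 ± 0.07 at D8, 10.29 ± 0.09 on D10 and 11.16 ± 0.06 at D28 (SD, n = 3) and was not called in any comparison. Below 2-fold, Tef differed by 0.62 from D7 to D8, by -0.70 from D8 to D10 and by 0.87 from D10 to D28 (adjusted p = 0.00042, 0.00012 and 2.4e-06, limma).

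From D7 to D10, 4 accessory genes rose and 4 fell, in a comparison that called 18.9% of all genes. Bhlhe40 and Bhlhe41, related repressors that compete for E-boxes, moved in opposite directions, by 1.15 (adjusted p = 0.00040, limma) and -1.57 (adjusted p = 7.2e-07, limma). Ciart was 1.16 higher (adjusted p = 9.0e-05, limma), Wee1, a mitotic inhibitor kinase gene that the clock can drive, 1.13 higher (adjusted p = 8.6e-05, limma), and Rorb at least 2.69-fold higher. These rises lean in part on replicate 1 of D10. Bhlhe40 stood at 13.24 there against 12.40 and 12.41 in replicates 2 and 3. Wee1 stood at 9.46 against 9.01 and 9.08, and Ciart at 8.82 against 8.36 and 8.30. Replicates 2 and 3 still lay above every D7 library. Without replicate 1 of D10, 12 accessory genes rather than 13 were called in at least 1 comparison. Whether each rise stays past 2-fold without it is not given here. Nfil3, a repressor that binds D-boxes in competition with DBP, fell by 1.52 (adjusted p = 3.6e-06, limma), Usp2, which encodes a deubiquitinase, by 1.25 (adjusted p = 8.4e-05, limma) and Per1 by 1.25 (adjusted p = 1.2e-05, limma). Per1 stood at 11.65 ± 0.11 at D7, 11.08 ± 0.31 at D8, 10.40 ± 0.29 on D10 and 11.19 ± 0.11 at D28 (SD, n = 3), so that its lowest mean, like those of Per2 and Per3, was at D10. From D8 to D10, where 9.66% of all genes were called, no accessory gene rose, and Hlf, Bhlhe41, Timeless and Usp2 fell.

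From D10 to D28, 5 of the 24 rose and 5 fell, in a comparison that called 27.5% of all genes. Among those that rose were Nfil3 by 1.52, Usp2 by 1.67, Bhlhe41 by 1.29 and Nampt by 1.72 (limma, adjusted p between 3.6e-07 and 2.8e-06). Those that fell were Wee1 by 1.96, Ciart by 1.32, Bhlhe40 by 1.30, Csnk1e by 1.01 and Rorb, to 0.440 of its D10 level with the same floor of 2.87 (limma, adjusted p between 1.8e-07 and 0.044). The falls of Csnk1e and Rorb also lean on replicate 1 of D10. Csnk1e stood at 10.52 there against 10.13 and 10.11 in replicates 2 and 3, and Rorb at 5.46 against 3.76 and 3.68. Nampt, which encodes the rate-limiting enzyme of NAD salvage, had its highest mean at D28, 13.63 ± 0.06 (SD, n = 3), and was 1.65 above D7 (adjusted p = 1.2e-06, limma). Timeless, a replication fork gene in mammals, was 1.57 below D7 at D28 (adjusted p = 5.6e-06, limma). From D7 to D28, where 17.3% of all genes were called, Hlf rose too, by 1.11 (adjusted p = 0.022, limma), and Rorb was at least 1.18-fold higher. From D8 to D28, where 19.7% were called, Nampt rose by 2.57, and Timeless, Ciart and Wee1 fell by 1.84, 1.21 and 1.03 (limma, adjusted p between 8.2e-09 and 0.00020). Of 4 proliferation markers, 3 were called lower at D28 than at D7 and their summed level went from 12.1 in each D7 library to between 9.79 and 10.3 at D28, and their part in the values of Timeless and Wee1 was not tested. The accessory genes without a call included Arntl2, Tef, Rora, Csnk1d, Btrc, Tipin, Noct and Gsk3b.

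Genes that respond to glucocorticoids, which can reset the clock, were read beside these values. Tsc22d3 stood at 13.73 ± 0.07 at D7, 12.28 ± 0.16 at D8, 12.003 ± 0.11 on D10 and 13.55 ± 0.09 at D28 (SD, n = 3). Fkbp5 stood at 13.02 ± 0.20, 12.16 ± 0.07, 11.67 ± 0.15 and 13.32 ± 0.08 at the same time points. Both were thus lower at D8 and D10 than at D7 and D28, without overlap. Zbtb16 had means of 10.00, 8.64, 9.01 and 10.84, Sgk1 of 12.42, 11.69, 11.98 and 11.41, and Klf9 of 11.31, 11.36, 11.88 and 11.66. From D7 to D10 Tsc22d3 fell by 1.72 (adjusted p = 1.4e-08, limma) and Fkbp5 by 1.35 (adjusted p = 2.8e-07, limma), and from D10 to D28 they rose by 1.55 and 1.65. Both comparisons share the D10 libraries, so that a gene displaced at D10 differs one way and then back in them. Beside these values, Npas2 differed by -1.98 and 1.18, Per2 by -0.78 and 0.65, Per3 by -0.76 and 1.11 and Cry2 by -0.63 and 0.98, and Clock by 0.53 and -0.65, Cry1 by 0.57 and -0.65, Nr1d1 by 1.14 and -1.56, Nr1d2 by 1.57 and -1.65, Dbp by 0.45 and -0.95 and Arntl by -0.10 and -0.34. Klf9 and Sgk1 did not follow Tsc22d3 and Fkbp5 throughout, since Klf9 was 0.57 higher at D10 than at D7 (adjusted p = 0.0096, limma) and Sgk1 was 0.57 lower at D28 than at D10 (adjusted p = 0.00029, limma). From D7 to D8, when Tsc22d3 fell by 1.45, Npas2, Per1 and Arntl differed in the same direction, by -0.81, -0.57 and -0.48 (adjusted p = 0.0059, 0.017 and 0.012, limma). Dbp and Nr1d2 differed in the other direction, by 1.05 and 0.60 (adjusted p = 0.00014 and 0.0045, limma). Per2 and Per3 differed by 0.17 and 0.28 (adjusted p = 0.53 and 0.30, limma). Of genes that respond quickly to serum and fresh medium, Egr1 stood at 9.99 ± 0.17, 10.20 ± 0.21, 11.95 ± 0.42 and 9.98 ± 0.29 (SD, n = 3) and rose by 1.96 from D7 to D10 (adjusted p = 9.0e-07, limma). Fos, with means of 8.00, 8.42, 8.63 and 7.73, Ier2, with 9.70, 9.79, 10.01 and 9.10, Srf, with 8.94, 9.64, 9.88 and 9.11, and Ccn2, with 15.60, 15.27, 14.93 and 14.60, were not called in any comparison, and Ccn1, with 13.18, 12.11, 12.19 and 12.44, was called only from D7 to D8, where it fell by 1.06. Below 2-fold, Srf was 0.94 and Fos 0.63 higher at D10 than at D7 (adjusted p = 4.8e-05 and 0.011, limma), and Ier2 0.31 higher (adjusted p = 0.087, limma). Ccn1 and Ccn2 were 0.99 and 0.67 lower (adjusted p = 9.9e-06 and 0.0225, limma). From D10 to D28 Fos, Ier2 and Srf differed by -0.90, -0.91 and -0.77 (adjusted p = 0.00061, 4.4e-05 and 0.00019, limma). The part of glucocorticoid or medium signals in the clock values was not tested.

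**Figure D4:**
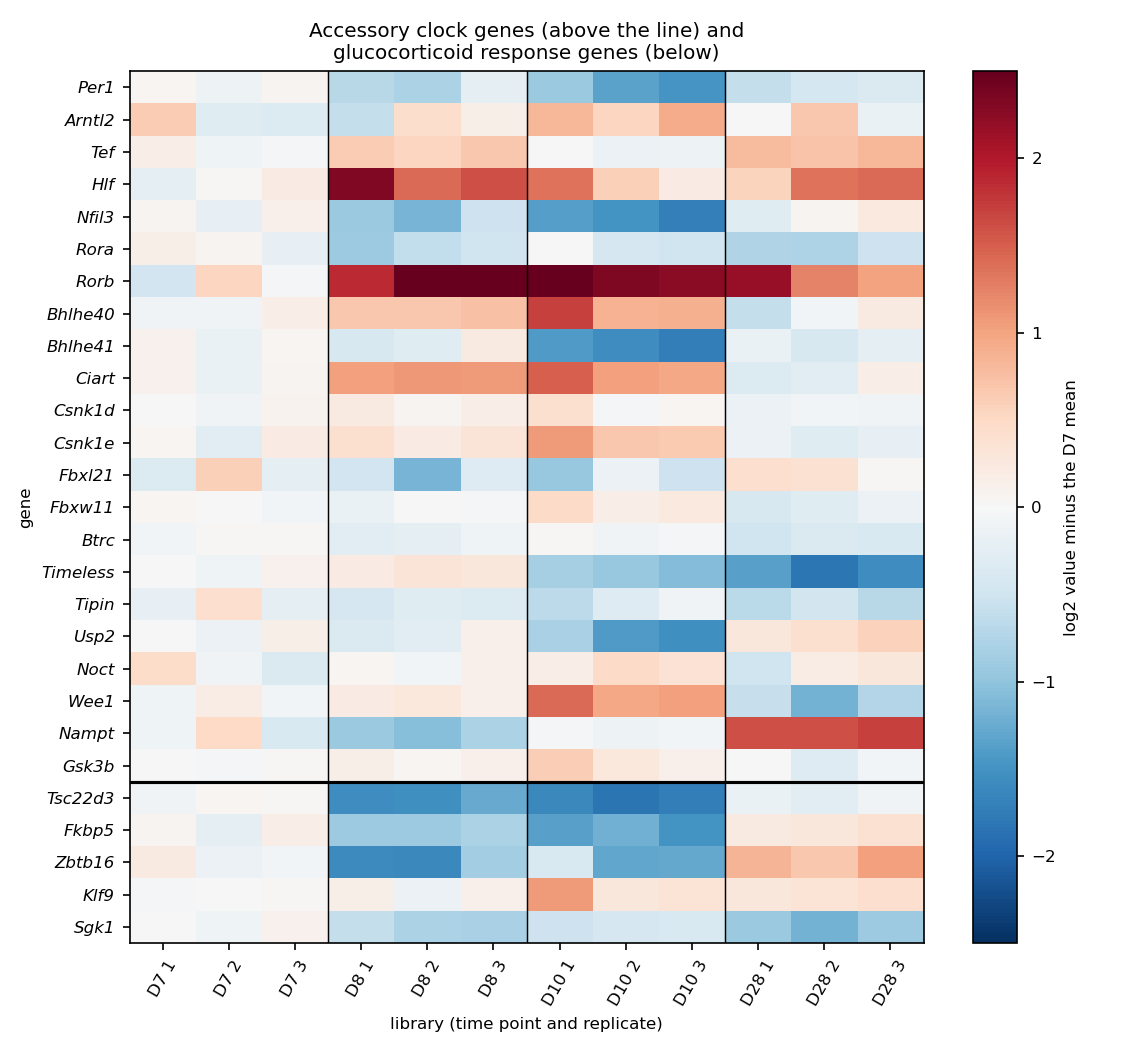
Level of accessory clock genes (above the black line) and of 5 glucocorticoid response genes (below it; Per1 belongs to both lists) in the 12 libraries, as the log2 value minus the D7 mean of the gene, with colours cut at -2.5 and 2.5. Nfil3, Usp2, Bhlhe41, Per1, Tsc22d3 and Fkbp5 are lower in the D10 libraries than in those of D7, and Ciart, Bhlhe40 and Wee1 are higher.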

How the data were processed

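RNA sequencing values of 12 libraries, 3 per time point, were used as deposited. Per the methods and the submitters' processing notes (Trimmomatic 0.36, HISAT2, Cufflinks, HTSeq), the authors trimmed and aligned reads, counted them per gene, equalized the libraries and took log2 of the value plus 1, so the deposited unit is log2 and count models could not be used. The methods name hg38 and the notes GRCm38, and the symbols are those of mouse. All 12 value columns were matched to samples by title.

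Testing was limited to genes that reached 1 on the log2 scale in 3 or more libraries, with limma 3.58.1 in R 4.3.3 (1 mean per time point, variance trend, residual degrees of freedom 8, 6 comparisons). The fit was tested on simulated data with known changes. The study's own rule, named as an alternative, requires 2-fold and an unadjusted two-sample p under 0.05. The clock genes were given, and all lists were chosen with earlier results of these data known. Named genes are all 10 clock genes, the accessory genes called at least once, the glucocorticoid and medium response genes, and the 5 genes most like Arntl and Dbp. Some accessory genes are counted but not reported here by name. Exonic lengths came from GENCODE M21. Alternatives covered the filter, scaling, pseudocount, variance trend, test, groups in the fit, thresholds, a replicate block and each library left out. Python 3.11.15, numpy 2.4.6, pandas 2.3.3 and matplotlib 3.10.9 were used for sequences and figures.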

Additional observations from a re-analysis of the deposited data

How the results depend on the processing

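No clock gene called in a comparison changed sign in it under any of the 23 alternatives. The calls of Npas2 (D10 against D7, D28 against D10), Nr1d2, Per3 at D28 against D10, Nr1d1 at D28 against D10 and Dbp at D28 against D8 were lost only when the fold change threshold was raised to 2 on the log2 scale, under which 0 of the 10 were called in every comparison. Under the study's own rule Nr1d1 had an unadjusted p of 0.050 at D10 against D7 and was not called. Leaving out single libraries gave 0 to 1 called clock genes at D8 against D7 (0 without D7 replicate 2) and 0 to 4 at D10 against D8 (0 without D8 replicate 3, 4 without D10 replicate 2 or 3), and the cause was not tested. With median-of-ratios scaling 0 were called at D8 against D7, where Dbp was at 0.999, and the median change in log2 fold change over all genes was 0.13 at D28 against D10 and 0.11 at D28 against D8. The replicate block, a term for the replicate number, left 3 clock genes called at D10 against D7 and 4 at D28 against D10 and changed no call of a clock gene. Deviations of same-numbered libraries from their time point means correlated at a median r of -0.0088 over 18 pairs, so the numbers were not taken to pair the libraries. Without a fold change threshold, clock genes called were 4 (D8 against D7), 9 (D10 against D8), 8 (D10 against D7), 10 (D28 against D10), 4 (D28 against D8) and 4 (D28 against D7), all genes called were 3714, 5096, 7288, 9259, 7304 and 6592 in that order, and accessory genes called were 20. At the threshold of 2 all genes called were 388, 532, 1342, 2095, 1555 and 1356, and accessory genes called were 2. Library totals are not kept, so depth could be judged only from low levels.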
